A study of Mus musculus with 6 samples.

Results

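SR proteins, the kinases that phosphorylate them, SR-related and LUC7-like proteins, and hnRNPs were examined in RNA-Seq data of G1E-ER4 cells. The set held 40 genes, listed by name, of the 48709 genes in the count table. It consisted of 12 SR proteins, 6 SR protein kinases, 8 SR-related and LUC7-like proteins, and 14 hnRNPs. All 40 were found under their symbols and had enough counts to be tested, with between 1802 and 39536 counts per gene and library.

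Mouse G1E cells lack GATA1 and stay immature red cell precursors. The ER4 subline used here had been given back GATA1 in a form that works only when tamoxifen is bound to its estrogen receptor portion, after which the cells mature. Every library came from this line and received a cell-penetrating Tat peptide and tamoxifen. The CHD4-APR group (3 libraries) received the Tat peptide carrying an aggregation-prone region of CHD4, an ATP-dependent chromatin remodeler, and the CTRL group (3 libraries) received a Tat control peptide in its place. Both peptides were used at 10 μM and were added 2 h before tamoxifen, which was left for 28 h. The tamoxifen dose is 100 nM in the cell culture description and 100 μM in the design text, so it is uncertain here. No library of untreated cells was used, and the differences below are between the peptides in tamoxifen-treated cells. The labels do not say that the 3 libraries of a group came from separate cultures, so the p-values measure the spread between these libraries, which may be technical. Total counts were between 41687482 and 49784177 per library, and 12722 genes were tested. CTRL replicate 1 stood apart from the other CTRL libraries (chi-square per degree of freedom of 15.46 and 9.40 against them, and 4.98 between the other two). All 12 erythroid markers examined were at 1 CPM (counts scaled to a common library size) or more in every library, whereas the 4 embryonic stem cell markers were at 0 in all of them. Of 6 megakaryocyte markers 3 reached this level, as did 2 of 8 myeloid and mast cell, 0 of 5 lymphoid and 0 of 6 fibroblast and epithelial markers. The megakaryocyte list summed to 54.17 to 56.48 CPM in the CTRL and 51.11 to 55.05 CPM in the CHD4-APR libraries. Gp9 (megakaryocyte, log2 fold change -0.31) and Cd68 (myeloid, -0.38) were lower with CHD4-APR, and 0 of either list were higher. The summed CPM of the erythroid list were 37580 to 38950 in the CTRL and 35300 to 36500 in the CHD4-APR libraries, sums made up mostly of Hba-a1 and Hba-a2. Of the 12 markers, 3 were higher and 3 lower, with a median log2 fold change of 0.017. Their part in the results on splicing regulators was not tested. In such bulk samples, fewer cells of a type and less RNA per cell cannot be told apart.

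SR proteins bind exons through RNA recognition motifs and recruit the spliceosome with tails rich in arginine and serine (RS domains). CLK kinases in the nucleus and SRPK kinases in the cytoplasm phosphorylate these tails and so set where SR proteins reside and whether they are active. SR-related proteins such as SRRM2 and SON build nuclear speckles, and LUC7-like proteins sit on the U1 snRNP at donor splice sites. hnRNPs coat nascent RNA and often act against SR proteins at the same exons. Many genes of these families control their own output through retained introns or poison exons that send the transcript to nonsense-mediated decay, and intron retention is widespread in maturing erythroblasts. Of the 40 genes, 33 (82.5%) have a transcript annotated for nonsense-mediated decay, against 30.6% of 10100 protein-coding genes tested, and 34 (85.0%) have a retained-intron transcript, against 61.1%. The counts sum all transcripts of a gene and do not separate these forms.

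The promoters of the members are shown for a gene that rose (Son), the SR protein with the largest increase (Srsf10), kinases that were called higher (Clk4) and lower (Clk2), and the hnRNP that fell (Hnrnpd), all without the length and GC correction described with the counts. Each sequence is the 100 bases before a RefSeq transcript start on GRCm38.p6, read 5′ to 3′ on the strand of the gene. Capitals mark the SP/KLF motif (GGGCGG), the CCAAT box and the ETS motif (CCGGAAGT), each on either strand.
Son, chr16:91647724-91647823, plus strand: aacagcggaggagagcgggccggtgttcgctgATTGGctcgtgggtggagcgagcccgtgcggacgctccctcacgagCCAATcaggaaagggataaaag
Srsf10, chr4:135855971-135856070, plus strand: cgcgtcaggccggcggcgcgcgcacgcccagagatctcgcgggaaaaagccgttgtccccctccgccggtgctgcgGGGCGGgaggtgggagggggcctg
Clk4, chr11:51263014-51263113, plus strand: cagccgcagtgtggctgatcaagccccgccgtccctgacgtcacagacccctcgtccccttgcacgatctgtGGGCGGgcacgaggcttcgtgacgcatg
Clk2, chr3:89164695-89164794, plus strand: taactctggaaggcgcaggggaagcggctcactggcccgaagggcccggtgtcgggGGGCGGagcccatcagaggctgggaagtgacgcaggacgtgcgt
Hnrnpd, chr5:99978939-99979038, minus strand: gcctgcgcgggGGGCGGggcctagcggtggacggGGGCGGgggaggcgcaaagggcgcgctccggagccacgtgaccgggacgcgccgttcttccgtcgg
GGGCGG stands in the stretches of Srsf10, Clk4, Clk2 and Hnrnpd, while the stretch of Son holds CCAAT once on each strand. RefSeq promoter windows of 300 bases, from 250 before to 50 after the start, were at hand for 38 members in 54 windows and were searched on both strands. GGGCGG was present in 70.4% of the 54 windows against 35.7% of all 32851 windows. CCAAT was present in 48.1% against 37.4%, CCGGAAGT in 11.1% against 3.89%, the CRE letters TGACGTCA in 3.7% against 1.79%, TATAAA in 9.26% against 13.6%, and the GATA letters AGATAA in 5.56% against 11.2%. The median number of CpG dinucleotides was 30 per member window and 7 over all windows. The background of all windows was not limited to genes tested here, whereas all members were tested, so the shares are not set against expressed genes alone. These matches describe letters only, and windows of one gene can overlap.

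Of the 40 genes, 17 were higher with CHD4-APR at an FDR under 0.05 (edgeR's quasi-likelihood test with Benjamini-Hochberg adjustment over all genes tested), 3 were lower, and 20 did not pass. Of all genes tested, 38.3% passed, 20.4% as higher and 17.8% as lower, beside 42.5% and 7.5% of the members. Scaled by total counts alone, 22 members were higher and 0 lower, and 1 was lower at an unadjusted p under 0.05 (edgeR). Of all 12722 genes tested, 2959 were then higher and 1474 lower, with a median log2 fold change of 0.033. DESeq2 called 19 members higher and 3 lower, beside 2457 and 2038 of 11435 genes. The libraries of the groups did not overlap for 26 of the 40 members, and for 49.9% of all genes tested. The median log2 fold change, CHD4-APR minus CTRL, was 0.094 over the members and -0.012 over all genes tested. The 40 genes took 1.079% to 1.17% of the counts in the CTRL and 1.255% to 1.272% in the CHD4-APR libraries, ranges that did not overlap.

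The log2 fold changes moved with gene length and GC content. Across the 12677 genes with both values, the log2 fold change had a Spearman correlation of 0.407 with exonic length and -0.456 with GC content, and across the 40 members of 0.377 and -0.427, where genes share libraries and are not independent. The members had a median GC content of 43.05% and a median exonic length of 6.95 kb, compared with 49.6% and 3.69 kb for all genes tested. Of the 32 members with a GC content below the median of all genes, 16 rose and 1 fell. Of the other 8, 1 rose and 2 fell. Shares of all genes on each side of that median were not counted, so these counts have no background beside them. When the smooth trend of each library with length and GC content was removed (the corrected fit), 4 members were higher and 17 lower, beside 11.4% and 16.6% of all genes. The median was -0.093 over the members and -0.028 over all genes. Over all genes the correlations were then 0.0523 with exonic length and 0.00513 with GC content, but over the 40 members they were -0.352 and 0.60. Among the members the trend was thus turned over and not removed, and the corrected values of members with low GC content tended to lie below those of members with high GC content. Of the 17 members that rose, 2 stayed higher (Son and, unless the longest transcript was used, Srrm2), 10 no longer passed and 5 were lower. When the mean level of the gene was added to the smooth, after seeing the data, 8 members were higher and 10 lower, beside 1652 and 1712 of 12677 genes. Of the 5 members that had risen and turned lower, only Rbm25 passed as lower in this last fit. The values of the families below are therefore given with and without the length and GC correction. What produced the trend was not tested.

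**Figure D1:**
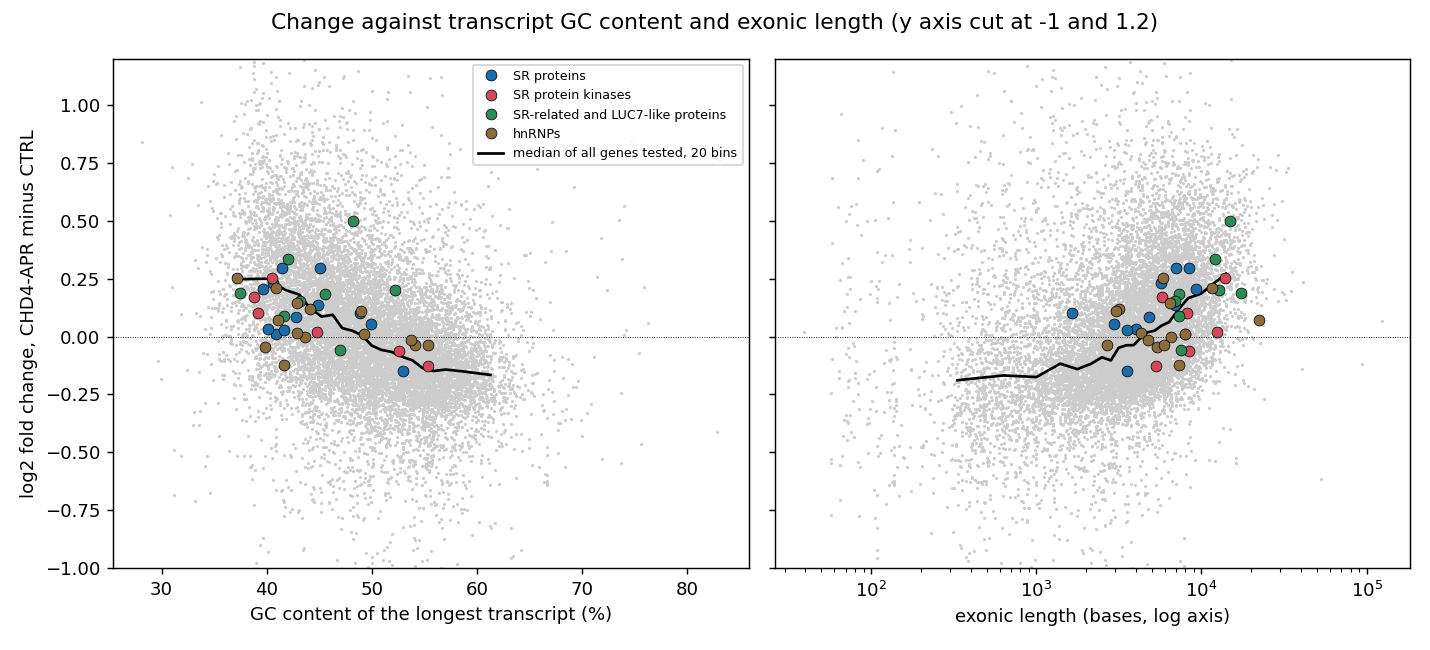
Log2 fold change (CHD4-APR minus CTRL, without correction) against the GC content of the longest transcript in percent and against exonic length in bases on a log axis, with members in colour by family, all genes tested in grey and their binned median as a black line. The members lie mostly at low GC content (median 43.05%) and at long exonic length (median 6.95 kb), where the black line also lies higher.

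Counts of calls and medians were set side by side for the families, with 20.4% of all genes tested higher and 17.8% lower. SR-related and LUC7-like proteins had the highest median log2 fold change, 0.19 over 8 genes, with 6 higher (75.0%). SR proteins followed with 0.094 over 12 genes, 5 higher (41.7%) and 1 lower (8.33%), and the kinases with 0.061 over 6 genes, 2 higher (33.3%) and 1 lower (16.7%). The hnRNPs were near 0 with a median of 0.014 over 14 genes, 4 higher (28.6%) and 1 lower (7.14%). With upper quartile scaling, where the median over all genes was -0.029, that of the hnRNPs turned to -0.0027. Leaving out 1 library put this median between 0.0044 (without CTRL replicate 1) and 0.032 (without CTRL replicate 2), and 2 hnRNPs were higher without CTRL replicate 3, CHD4-APR replicate 2 or CHD4-APR replicate 3. Without CTRL replicate 1 the median of SR-related and LUC7-like proteins was 0.15 and that of SR proteins 0.084. The SD between libraries of a group of the family's median level was 0.032 for SR proteins, 0.023 for the kinases, 0.044 for SR-related and LUC7-like proteins and 0.023 for the hnRNPs on the log2 scale. With the length and GC correction the medians were -0.069 for SR proteins (1 higher, 3 lower), -0.14 for the kinases (4 lower), -0.048 for SR-related and LUC7-like proteins (2 higher, 3 lower) and -0.096 for the hnRNPs (1 higher, 7 lower), where 11.4% of all genes were higher and 16.6% lower. All 4 medians thus changed sign with the correction, where the median over all genes was -0.028. That of SR-related and LUC7-like proteins stayed positive, at 0.026 and 0.036, in corrections that used the longest transcript or added the level of the gene. Both corrections were chosen after seeing the data, and the medians over all genes were -0.026 and -0.020 with them. The families were not tested against each other, since their members share the same libraries.

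**Figure D2:**
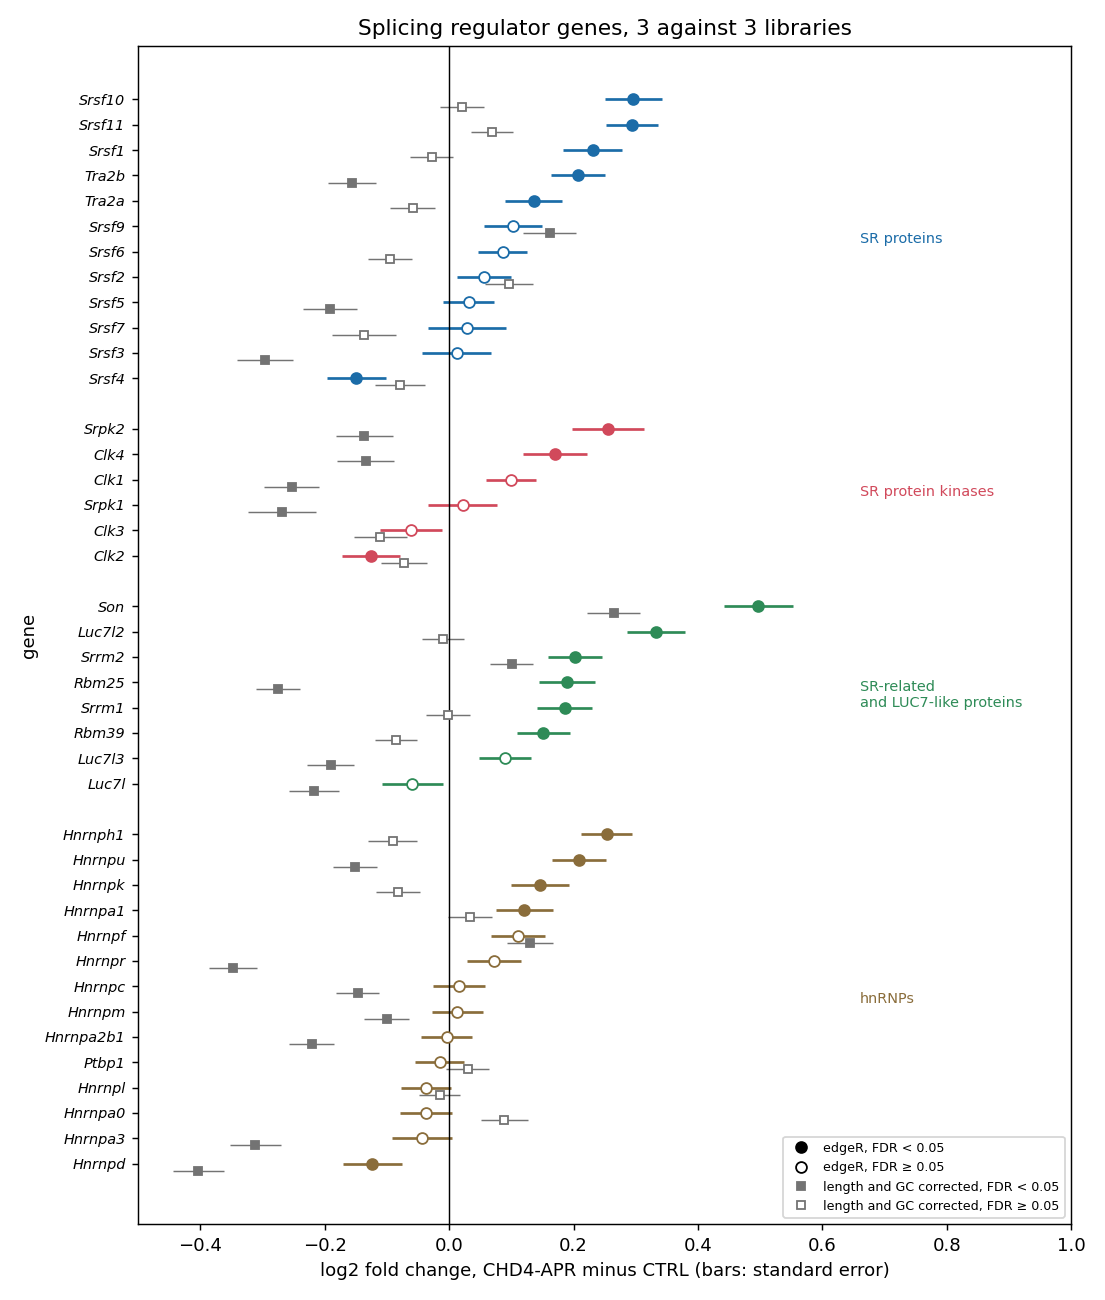
Log2 fold change of each member (CHD4-APR minus CTRL) by family, with its standard error as a bar, without correction (coloured circles) and with the length and GC correction (grey squares), filled where the FDR was under 0.05. Son lies highest in both, at 0.50 and 0.26, whereas most other members move toward or below 0 with the correction.

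Summed normalized CPM set the families side by side in single libraries. The 8 SR-related and LUC7-like genes summed to between 2487.7 and 2701.5 CPM in the CTRL and between 3048.7 and 3118.4 CPM in the CHD4-APR libraries. The 12 SR proteins summed to between 2508.5 and 2616.7 and between 2737.2 and 2781.1 CPM, and the 6 kinases to between 578.39 and 596.69 and between 602.11 and 622.17 CPM. In these 3 families each CHD4-APR library lay above each CTRL library. The 14 hnRNPs made up the largest sum, between 5561 and 5931.2 CPM in the CTRL and between 5894.7 and 6037.8 CPM in the CHD4-APR libraries, and these ranges overlapped. The sums were not corrected for length and GC content.

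Levels between genes were compared per kilobase of exon (RPKM from normalized CPM, mean ± SD of the 3 CTRL libraries). Hnrnpf, which binds runs of G, was the most abundant member at 219 ± 10.1 RPKM, followed by Hnrnpa1 at 186 ± 10.7 and Srsf5 at 139 ± 2.24. Hnrnpf shares 26.5% of its exonic bases with other genes, so its counts are uncertain. The SRPK kinases were the least abundant members, with Srpk1 at 3.43 ± 0.103 and Srpk2 at 3.64 ± 0.177 RPKM, neighbours that lay within their summed SDs of each other. Clk1, in the middle of the order (rank 22 of 40), was the most abundant kinase at 30.2 RPKM, ahead of Clk2 at 21.1, Clk3 at 10.6 and Clk4 at 8.55. Exonic length is the union of all annotated exons, so genes with long retained introns have lower RPKM on this scale.

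**Figure D3:**
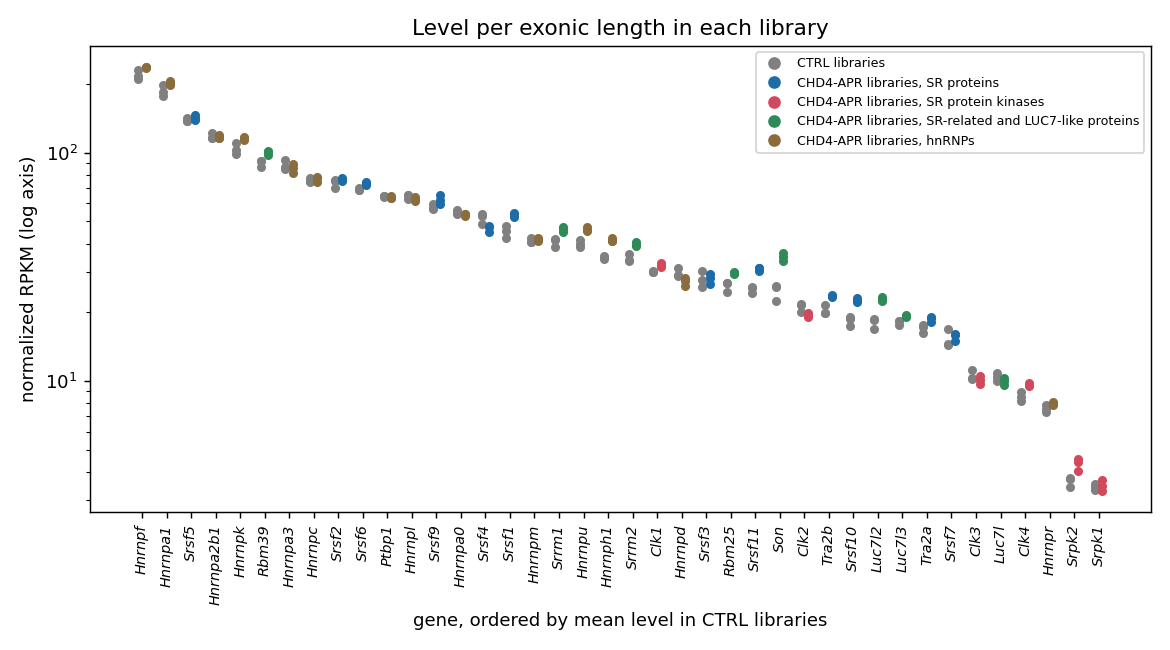
RPKM of the 40 members in each library (log axis; grey, CTRL; colour, CHD4-APR by family), ordered by the mean of the CTRL libraries. The CTRL means span from 3.43 RPKM for Srpk1 to 219 RPKM for Hnrnpf, and Srpk1 and Srpk2 are last in the order.

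Among the SR-related proteins, Son had the largest log2 fold change of all 40 members without correction. Son (chr16:91647506-91679221 on GRCm38) encodes a large RS-domain protein of the speckle core that is needed for splicing of weak introns. It was at 334.44, 384.37 and 389.04 normalized CPM in the CTRL libraries and at 519.34, 544.08 and 500.41 in the CHD4-APR libraries. All 3 CHD4-APR libraries were above the CTRL libraries, and the log2 fold change was 0.50 (SE 0.055, FDR = 5.31e-06, edgeR), a 1.41-fold difference. With the correction it was 0.26 (FDR = 0.000272). Son was the 1 member of the 17 higher whose call was kept under all alternatives run.

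Luc7l2, a LUC7-like protein of the U1 snRNP, was at 204.57, 226.77 and 224.48 CPM with CTRL and at 270.95, 282.95 and 272.27 CPM with CHD4-APR. The groups did not overlap, and the log2 fold change was 0.33 (SE 0.047, FDR = 4.96e-05, edgeR), but it was -0.010 with the correction (FDR = 0.864). Luc7l2 shares 18.9% of its exonic bases with the gene model Gm26699, so its counts are uncertain. Srrm2, the main scaffold of nuclear speckles beside SON, was at 435.35, 428.92 and 464.21 CPM with CTRL and at 520.57, 503.23 and 505.35 CPM with CHD4-APR. It rose without overlap by a log2 fold change of 0.20 (SE 0.043, FDR = 0.00159, edgeR) and by 0.10 with the correction (FDR = 0.0432), but did not pass when the correction used the longest transcript (0.058, FDR = 0.235). Rbm25, an RNA-binding protein that associates with the U1 snRNP, was at 427.46, 467.71 and 465.99 CPM with CTRL and at 510.7, 522.79 and 518.65 CPM with CHD4-APR. Its groups did not overlap either, at 0.19 (SE 0.045, FDR = 0.00314, edgeR), yet the direction turned to -0.28 with the correction (FDR = 5.3e-05). Rbm25 has a GC content of 37.5%, and Srrm2 one of 52.3%. Srrm1 and Rbm39 also rose, by 0.19 and 0.15 on the log2 scale, but were at -0.0016 (FDR = 0.979) and -0.085 (FDR = 0.0751) with the correction, while Luc7l3 (0.089) and Luc7l (-0.059) did not pass. Without CHD4-APR replicate 2 Rbm39 did not pass (FDR = 0.0596). With the correction Luc7l3 (-0.19, FDR = 0.00147) and Luc7l (-0.22, FDR = 0.000908) were lower.

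**Figure D4:**
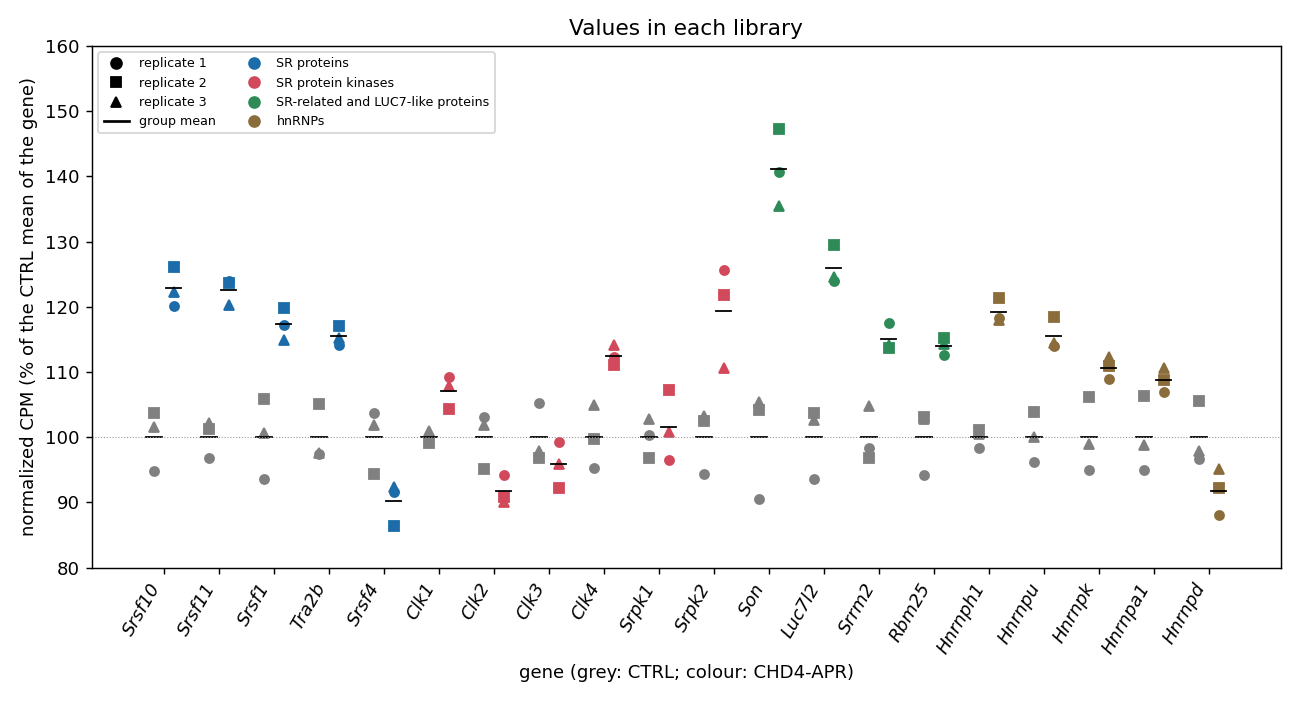
Normalized CPM of the members named with their library values, as percent of the CTRL mean of the gene (grey, CTRL; colour, CHD4-APR; bars, group means), without length and GC correction. Son stands at 135.5% to 147.3% in the CHD4-APR libraries, and Srsf4, Clk2 and Hnrnpd lie below their CTRL libraries.

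Among the SR proteins, 5 of 12 rose and Srsf4 fell. Srsf10, which represses splicing when dephosphorylated, was at 122.03, 133.56 and 130.82 CPM with CTRL and at 154.68, 162.35 and 157.54 CPM with CHD4-APR. The CHD4-APR libraries were all higher, with a log2 fold change of 0.30 (SE 0.046, FDR = 0.000126, edgeR) that shrank to 0.021 with the correction (FDR = 0.719). Srsf11, a speckle-associated SR protein, was at 205.8, 215.26 and 217.21 CPM with CTRL and at 263.71, 263.2 and 255.8 CPM with CHD4-APR. This difference was 0.29 without overlap (SE 0.042, FDR = 5.43e-05, edgeR) and 0.070 with the correction (FDR = 0.145). Srsf11 stayed higher when the correction added the level of the gene (0.12, FDR = 0.00939) or used the longest transcript. Srsf1, the prototype of the family, was at 242.2, 273.91 and 260.21 CPM with CTRL and at 303.46, 310.13 and 297.36 CPM with CHD4-APR, again without overlap. Its log2 fold change of 0.23 (SE 0.048, FDR = 0.00121, edgeR) became -0.028 with the correction (FDR = 0.589).

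Tra2b, a transformer-2 homolog that binds GAA-rich exonic enhancers, was at 183.8, 198.05 and 184 CPM with CTRL and at 215.32, 220.71 and 217.17 CPM with CHD4-APR. The groups were separate at 0.21 (SE 0.044, FDR = 0.00149, edgeR), but Tra2b was lower with the correction, at -0.16 (FDR = 0.0066). It did not pass when the correction added the level of the gene (-0.064, FDR = 0.193). Its relative Tra2a rose by 0.14 (FDR = 0.0269, edgeR) and was at -0.059 with the correction (FDR = 0.248), and it did not pass when either CTRL replicate 1 or 3, or CHD4-APR replicate 1 or 2, was left out. Srsf4 was at 191.37, 174.01 and 187.96 CPM with CTRL and at 169.02, 159.34 and 170.44 CPM with CHD4-APR. It fell without overlap, with a log2 fold change of -0.15 (SE 0.048, FDR = 0.0206, edgeR), and was at -0.079 with the correction (FDR = 0.166). Srsf4 did not pass with total counts alone (FDR = 0.0929) or when CTRL replicate 3 or CHD4-APR replicate 2 was left out. Srsf4 shares 43.0% of its exonic bases with the gene model Gm12992, so its counts are uncertain. The other 6 SR proteins, Srsf2, Srsf3, Srsf5, Srsf6, Srsf7 and Srsf9, did not pass. With the correction Srsf3 (-0.30, FDR = 0.000177) and Srsf5 (-0.19, FDR = 0.00393) were lower and Srsf9 was higher (0.16, FDR = 0.00987). SRSF3 couples splicing to mRNA export.

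The kinases did not move as one. Clk4 was at 47.242, 49.436 and 52.002 CPM with CTRL and at 55.631, 55.078 and 56.538 CPM with CHD4-APR, and Clk1 at 245.25, 243.29 and 247.55 CPM with CTRL and at 268.11, 256.06 and 264.46 CPM with CHD4-APR. In both genes each CHD4-APR library was above the CTRL libraries, but Clk4 passed (log2 fold change 0.17, SE 0.051, FDR = 0.0154, edgeR) and Clk1 did not (0.10, SE 0.041, FDR = 0.0641), although it passed with DESeq2 (FDR = 0.0368) and with scaling by total counts alone (FDR = 0.0110). Clk2 was at 115.38, 106.45 and 114.03 CPM with CTRL and at 105.47, 101.66 and 100.77 CPM with CHD4-APR. It fell by 0.13 on the log2 scale without overlap (SE 0.047, FDR = 0.0437, edgeR). Clk3 was at 93.917, 86.396 and 87.363 CPM with CTRL and at 88.536, 82.312 and 85.612 CPM with CHD4-APR, overlapping ranges with a log2 fold change of -0.061 (FDR = 0.354). These pairs also differ in base composition, as the GC content is 39.2% for Clk1 and 38.8% for Clk4 but 55.4% for Clk2 and 52.6% for Clk3. With the correction the log2 fold changes of all 4 CLK genes were negative, from -0.25 for Clk1 (FDR = 0.000595) and -0.13 for Clk4 (FDR = 0.0378) to -0.11 for Clk3 (FDR = 0.0674) and -0.072 for Clk2 (FDR = 0.168). The corrected values of Clk4 and Clk3 differed by less than their standard errors (0.046 and 0.043). Clk2 passed without CTRL replicate 2 but not when any of the other 5 libraries was left out, nor with total counts alone (FDR = 0.203) or without a filter (FDR = 0.0734).

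Srpk2, the paralog of Srpk1, was at 47.714, 51.765 and 52.147 CPM with CTRL and at 63.505, 61.559 and 55.924 CPM with CHD4-APR. All CHD4-APR libraries were higher, replicate 3 least, and the log2 fold change was 0.25 (SE 0.058, FDR = 0.00239, edgeR). Srpk1, which phosphorylates SR proteins for import into the nucleus, was at 42.543, 41.051 and 43.597 CPM with CTRL and at 40.913, 45.438 and 42.753 CPM with CHD4-APR. These ranges overlapped, at 0.022 (FDR = 0.793). With the correction Srpk2 was at -0.14 (FDR = 0.0368) and Srpk1 at -0.27 (FDR = 0.00167).

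Among the 14 hnRNPs, 4 rose, Hnrnpd fell and 9 did not pass. Hnrnph1, which binds runs of G in introns and exons, was at 199.47, 205.03 and 203.59 CPM with CTRL and at 239.79, 245.95 and 239.11 CPM with CHD4-APR. The groups were well separated, with a log2 fold change of 0.25 (SE 0.041, FDR = 0.000158, edgeR) that was -0.091 with the correction (FDR = 0.0999). Hnrnpu, a scaffold of chromatin-associated RNA, was at 445.88, 481.64 and 463.51 CPM with CTRL and at 528.15, 548.93 and 530.72 CPM with CHD4-APR. It too did not overlap, at 0.21 (SE 0.043, FDR = 0.00121, edgeR), and was lower with the correction, at -0.15 (FDR = 0.0045). Hnrnpk, which binds C-rich RNA, was at 640.51, 715.94 and 667.26 CPM with CTRL and at 734.26, 748.18 and 756.99 CPM with CHD4-APR. Hnrnpa1, which binds exonic silencers, was at 556.32, 622.5 and 578.96 CPM with CTRL and at 626.04, 637.67 and 647.79 CPM with CHD4-APR. In both, the highest CTRL library, replicate 2, lay just under the lowest CHD4-APR library, and the log2 fold changes were 0.15 (FDR = 0.0190) for Hnrnpk and 0.12 (FDR = 0.0484) for Hnrnpa1 by edgeR. With the correction they were -0.083 (FDR = 0.0966) and 0.033 (FDR = 0.540). Hnrnpa1 passed without CTRL replicate 2 but not when any of the other 5 libraries was left out, nor with upper quartile scaling (FDR = 0.0853) or protein-coding genes only (FDR = 0.0570), and Hnrnpk did not pass without CTRL replicate 3, CHD4-APR replicate 2 or CHD4-APR replicate 3.

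Hnrnpd (AUF1), which binds AU-rich elements and takes part in mRNA decay, was at 211.14, 230.59 and 213.78 CPM with CTRL and at 192.39, 201.48 and 207.81 CPM with CHD4-APR. All CHD4-APR libraries were lower, CHD4-APR replicate 3 only slightly, and the log2 fold change was -0.12 (SE 0.047, FDR = 0.0481, edgeR). That call was lost with RLE scaling (FDR = 0.0538), with total counts alone (-0.079, FDR = 0.223), without a filter on low counts (FDR = 0.0503) and without any single library but CTRL replicate 1, for example at -0.084 without CTRL replicate 2 (FDR = 0.181). Hnrnpd was lower in both fits, and with the correction had the lowest value of the 40 members, -0.40 (FDR = 8e-06). Of the 3 members that fell, 0 passed without CTRL replicate 3 or without CHD4-APR replicate 2 (edgeR, with 2 and 1 at an unadjusted p under 0.05), and 1 passed without CHD4-APR replicate 1 or CHD4-APR replicate 3. Of the 9 hnRNPs that did not pass, Hnrnpa2b1 (-0.22), Hnrnpa3 (-0.31), Hnrnpc (-0.15), Hnrnpm (-0.10) and Hnrnpr (-0.35) were lower with the correction, with FDRs between 2e-05 and 0.0477, and Hnrnpf was higher (0.13, FDR = 0.0147). Hnrnpf, at an FDR of 0.0529 without correction, also passed as higher with DESeq2 (FDR = 0.0277), limma-voom (FDR = 0.0415) and total counts alone (FDR = 0.0118). Hnrnpa0, Hnrnpl and Ptbp1, the polypyrimidine tract binding protein, passed in neither fit.

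The rest of the splicing machinery was examined with lists of the parts that these regulators act on. Of 18 other SR-like proteins and splicing kinases tested, 9 were higher (50%) and 2 lower (11.1%), beside 20.4% and 17.8% of all genes, with a median of 0.093, which became 3 higher, 10 lower and -0.13 with the correction. Prpf4b, a kinase of the tri-snRNP, rose by 0.63, and Zranb2, a zinc finger protein that binds donor sites, by 0.50 on the log2 scale. Both stayed higher with the correction, at 0.31 (FDR = 2.84e-05) and 0.23 (FDR = 0.000333). Srrt (-0.22) and Scaf1 (-0.18) fell, and were at -0.16 (FDR = 0.00348) and -0.11 (FDR = 0.0365) with the correction. The number lower was 4 when CTRL replicate 2 was left out and 1 when CHD4-APR replicate 3 was. Other hnRNPs and relatives had 9 of 22 higher (40.9%) and 3 lower (13.6%), with 5 lower by DESeq2, limma-voom and upper quartile scaling (median 0.10), and 3 higher and 6 lower with the correction (-0.056). Ptbp3 (0.50) and Tia1 (0.41) rose, and Hnrnph3 (-0.22) and Taf15 (-0.18) fell. With the correction Ptbp3 (0.16, FDR = 0.00248) and Hnrnph3 (-0.31, FDR = 0.00219) passed, while Tia1 (0.026, FDR = 0.759) and Taf15 (-0.15, FDR = 0.0678) did not. The 3 lower calls of this list were lost without CHD4-APR replicate 2, and its median was 0.063 without CTRL replicate 1.

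Of 15 proteins of the Sm and LSm rings, which encircle spliceosomal snRNAs, 11 fell (73.3%) and 4 did not pass, where 17.8% of all genes tested fell. The median was -0.21, and Lsm2 (-0.34) and Snrpd2 (-0.32) were among the 11. This list kept its direction with the correction (11 lower, median -0.22), where 16.6% of all genes were lower. It also did with scaling by total counts alone (9 lower, -0.16), and 7 were lower without CHD4-APR replicate 1 or CHD4-APR replicate 2. Of 21 U1, U2 and U2AF proteins, 3 rose (14.3%) and 11 fell (52.4%), beside 20.4% and 17.8% of all genes. The median was -0.14, and Sf3b1 (0.31), Sf3a2 (-0.32) and Snrpa (-0.32) were among those called. Without CHD4-APR replicate 1 or CHD4-APR replicate 2, or with total counts alone, 6 of the 21 were lower. With the correction 12 of these 21 were lower and the other 9 did not pass (median -0.12). Sf3a2 (-0.17) and Snrpa (-0.25) were among the 12, and Sf3b1 (-0.017) was not. Of 29 tri-snRNP, PRP19 complex and helicase genes, 3 rose and 6 fell (10.3% and 20.7%, near the shares over all genes, median -0.013). Scaled by total counts alone, 6 were higher and 3 lower (median 0.032, beside 0.033 over all genes), and DESeq2 called 5 higher and 6 lower. Among those called by edgeR were Dhx15 (0.30), Cdc40 (0.24), Sart1 (-0.28) and Prpf31 (-0.21). With the correction 7 were lower and the other 22 did not pass (median -0.075), with Sart1 (-0.26) and Prpf31 (-0.24) still lower but Dhx15 at 0.036 (FDR = 0.517) and Cdc40 at -0.027 (FDR = 0.680). The number lower was 3 when CHD4-APR replicate 1 was left out and 2 when CHD4-APR replicate 2 was, and 5 were higher without CTRL replicate 2. The core proteins of the Sm and LSm list were shorter than the members, with a median exonic length of 2.05 kb and a median GC content of 46.5%.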

How the data were processed

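RNA was sequenced from 6 G1E-ER4 libraries with a poly(A) kit that does not mark strand. The authors removed adaptors with Cutadapt, mapped reads to GRCm38 with STAR 2.7.10a, and obtained a count for each Ensembl gene with featureCounts. The deposited values are these raw counts. How the counting treated strand and reads matching several genes is not given in the sources used here, so paralogs and overlapping genes are uncertain. Over 10% of exonic bases are shared with another gene in 7 members, and 21 members share none. These 7 are Srsf4 (43.0%), Hnrnpf (26.5%), Srsf2 (25.3%), Ptbp1 (20.7%), Luc7l2 (18.9%), Clk3 (15.2%) and Hnrnpm (14.7%). The table has 2 further columns whose names fit no sample, and they were left out.

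Names, positions, exonic length (union of exons) and GC content (longest transcript) were taken from GENCODE M21, which held 48349 of 48709 identifiers. Genes were tested with edgeR 4.0.16 under R 4.3.3, with limma 3.58.1 (voom) and DESeq2 1.42.0 as alternatives. The steps were filterByExpr, TMM, and the quasi-likelihood F-test of CHD4-APR against CTRL without a replicate block, two-sided, with Benjamini-Hochberg adjustment (FDR) over all 12722 genes tested and a threshold of 0.05. Standard errors are the fold change divided by the square root of F. The common biological coefficient of variation was 0.0518. An FDR is that of this edgeR test, with or without correction, unless another tool is named. CPM are normalized by TMM, those of the marker lists by total counts alone.

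For the corrected fit, log2 CPM (prior count 2) of each library was smoothed by loess (span 0.3) on log2 exonic length and GC content, and the trend entered edgeR as offsets. The tests and the length and GC correction were run on simulated counts with set changes or a set GC trend. Results of these runs are not given here. Promoter sequences came from RefSeq (GRCm38.p6).

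In each family, up to 4 members per direction with the largest significant changes, and all kinases, are given by library; of each context list, up to 2 genes per direction. A gene that this rule names is not reported here. Members and lists were chosen with earlier results of these data known.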

Additional observations from a re-analysis of the deposited data

How the results depend on the processing

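The labels do not say whether the numbers of the replicates pair the samples. Deviations of same-numbered libraries correlated at 0.0697, 0.0552 and -0.035 across genes, and those of differently numbered libraries at -0.081 to 0.034. With so few libraries these values cannot settle it. With a replicate block 17 members were higher and 3 lower, and 5214 genes of all changed, so the block moved none of these counts by over 1.5 times. DESeq2, limma-voom, RLE scaling, protein-coding genes only (chosen after seeing the data), a minimum of 10 counts and removal of 10 hemoglobin genes left the members at 16 to 19 higher and 2 or 3 lower. At an FDR under 0.01, 12 were higher and 0 lower (edgeR, 3 at an unadjusted p under 0.05). Without a filter 1 was lower. Scaled by total counts alone 0 were lower (1 unadjusted). The medians rose to 0.14 for SR proteins, 0.11 for the kinases, 0.23 for SR-related and LUC7-like proteins and 0.059 for the hnRNPs. The median over all genes rose as well, from -0.012 to 0.033. With upper quartile scaling the median was -0.0027 for the hnRNPs and -0.029 over all genes. Leaving out a library gave 13 to 18 higher and 0 to 2 lower.

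The corrections moved the results most. Corrected for length and GC content, 4 members passed upward and 17 downward, with medians of -0.069 for SR proteins, -0.14 for the kinases, -0.048 for SR-related and LUC7-like proteins and -0.096 for the hnRNPs, and with a replicate block 5 and 20, with -0.069, -0.14, -0.048 and -0.095 in the same order. Corrections added after seeing the data used the longest transcript (5 higher, 16 lower, 3202 genes of all changed, medians -0.082, -0.12, 0.026 and -0.075) or took in the mean level of the gene (8 higher, 10 lower, medians -0.022, -0.10, 0.036 and -0.017). Of all 12677 genes, 1313 were higher and 1889 lower with the longest transcript, and 1652 and 1712 with the mean level. The medians over all genes were -0.028 with length and GC content, -0.026 with the longest transcript and -0.020 with the mean level. Why the corrections differ was not tested.

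Members changed sign as follows, in log2 fold change. With the correction: Srsf1 (-0.028), Srsf3 (-0.30), Srsf5 (-0.19), Srsf6 (-0.095), Srsf7 (-0.14), Tra2a (-0.059), Tra2b (-0.16), Clk1 (-0.25), Clk4 (-0.13), Srpk1 (-0.27), Srpk2 (-0.14), Srrm1 (-0.0016), Luc7l2 (-0.010), Luc7l3 (-0.19), Rbm25 (-0.28), Rbm39 (-0.085), Hnrnpa0 (0.088), Hnrnpc (-0.15), Hnrnph1 (-0.091), Hnrnpk (-0.083), Hnrnpm (-0.10), Hnrnpr (-0.35), Hnrnpu (-0.15) and Ptbp1 (0.030). With the block in addition, the same 24 genes changed sign, with Srsf7 (-0.13), Srrm1 (-0.0017), Hnrnpa0 (0.089), Hnrnph1 (-0.090) and Hnrnpk (-0.082) where the rounded values differ. With the longest transcript: Srsf1 (-0.11), Srsf3 (-0.23), Srsf5 (-0.20), Srsf6 (-0.086), Srsf7 (-0.097), Tra2a (-0.0061), Tra2b (-0.078), Clk1 (-0.24), Clk4 (-0.099), Srpk1 (-0.19), Srpk2 (-0.13), Luc7l3 (-0.22), Rbm25 (-0.18), Hnrnpa0 (0.068), Hnrnpc (-0.11), Hnrnph1 (-0.12), Hnrnpl (0.054), Hnrnpm (-0.045), Hnrnpr (-0.41), Hnrnpu (-0.20) and Ptbp1 (0.049). With the mean level: Srsf3 (-0.21), Srsf5 (-0.079), Srsf6 (-0.025), Srsf7 (-0.085), Tra2a (-0.019), Tra2b (-0.064), Clk1 (-0.15), Clk4 (-0.098), Srpk1 (-0.26), Srpk2 (-0.11), Luc7l3 (-0.13), Rbm25 (-0.15), Hnrnpa0 (0.12), Hnrnpc (-0.079), Hnrnpl (0.020), Hnrnpm (-0.051), Hnrnpr (-0.30), Hnrnpu (-0.049) and Ptbp1 (0.063). With total counts alone: Hnrnpa0 (0.0076), Hnrnpa2b1 (0.041), Hnrnpa3 (0.00078), Hnrnpl (0.0080) and Ptbp1 (0.030). With upper quartile scaling: Srsf3 (-0.0049), Hnrnpc (-0.0015) and Hnrnpm (-0.0040). Leaving out a library turned only members that did not pass: Srsf3 (-0.041 to 0.074), Srsf7 (-0.014 to 0.11), Srpk1 (-0.016 to 0.060) and Hnrnpa2b1 (-0.017 to 0.019).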

Other observations

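Genes of the exon junction complex and of nonsense-mediated decay, the pathway that removes transcripts with poison exons, were listed as well. Of 15 genes, 14 were tested, 3 rose and 2 fell (21.4% and 14.3%, against 20.4% and 17.8% of all genes tested), with a median log2 fold change of -0.087 (edgeR, FDR under 0.05). With the length and GC correction 1 was higher and 3 lower (median -0.056), with a replicate block 4 were lower, with upper quartile scaling or protein-coding genes only 5, and without CHD4-APR replicate 2 or CHD4-APR replicate 3 the number lower was 1. Smg1, the kinase that phosphorylates UPF1, was at 79.893, 85.343 and 92.556 CPM with CTRL and at 122.74, 124.99 and 118.92 CPM with CHD4-APR. It rose by 0.51 without overlap (SE 0.053, FDR = 3.37e-06, edgeR) and by 0.16 with the length and GC correction (FDR = 0.00800). Upf2, a partner of UPF1, rose by 0.23 but was at 0.044 with the correction (FDR = 0.486). Smg9 (-0.24) and Casc3 (-0.12) fell and did not pass with the correction.

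Of 6 nuclear long noncoding RNAs listed, 5 were found by symbol and 4 were tested. Neat1, which builds paraspeckles together with several RNA-binding proteins, was at 1120.5, 998.48 and 1042.8 CPM with CTRL and at 978.35, 888.31 and 838.65 CPM with CHD4-APR. It fell without overlap, by 0.22 on the log2 scale (SE 0.056, FDR = 0.00463, edgeR), and with the correction had a log2 fold change of -0.52 (FDR = 1.82e-05). Firre rose by 0.22 and by 0.13 with the correction (FDR = 0.0403), but not when the correction used the longest transcript. Malat1 and Kcnq1ot1 did not pass without correction and were lower with it, at -0.21 (FDR = 0.00111) and -0.58 (FDR = 2.95e-05), so that 1 of the 4 was higher and 3 lower (median -0.36).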
